A study of Homo sapiens with 32 samples.

Results

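Messenger RNA levels of 37 human genes of Fanconi anaemia and homologous recombination repair were followed in 2 tumour cell lines through 3 drug treatments. The genes were chosen by name, among 60728 genes in the deposited table of read counts, and each was found by 1 Ensembl identifier. A549 is a lung adenocarcinoma line and SK-MEL-147 a melanoma line, and polyadenylated RNA was taken on day 7 of treatment. Doxorubicin, which traps topoisomerase II on DNA and leaves double-strand breaks, was used at 100 nM in each line. Palbociclib, an inhibitor of the kinases CDK4 and CDK6, was used at 5 uM (A549) or 1 uM (SK-MEL-147). INK128, an inhibitor of the kinase mTOR, was used at 200 nM (A549) or 100 nM (SK-MEL-147). Both senescence inducers, doxorubicin and palbociclib, were taken away after 72 h, whereas INK128, used to induce a diapause-like dormancy, was renewed with the medium every 3 days. Control cells of each line were labelled ctr, and the labels do not say whether they received vehicle. Each of the 8 groups had 4 libraries. In A549 the libraries titled 2 and 2-2 bore the same replicate number and were added, which left n = 3 per group, against n = 4 in SK-MEL-147. The series text names another melanoma line for INK128, and the sample labels, followed here, name SK-MEL-147.

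Homologous recombination repairs a broken chromosome by copying the sister chromatid, and so serves mainly cells that have replicated their DNA. The broken end is first trimmed to a single strand, breast cancer proteins then load a recombinase on it, and paralogs and motor proteins help that filament invade the sister. The Fanconi core complex attaches ubiquitin to the FANCD2-FANCI clamp at crosslinked or stalled DNA and hands such lesions over to the same recombination proteins. The kinases ATM and ATR, with CHEK1 and CHEK2 downstream, signal the damage and hold the cell cycle. Many of these genes are known to be transcribed mostly in S and G2 phase, through E2F sites and through CHR elements read by the DREAM complex.

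Promoter sequence is shown for 6 of the genes: EXO1, XRCC2, FANCD2 and BLM, among those with large falls in both lines, and FANCF and ATM, which fell in neither. The RefSeq promoter table (GRCh38.p14) held 33 of the 37 genes, and NBN, RAD54B, RMI2 and FANCI had no entry. Each window runs 5′ to 3′ on the gene's strand from 120 bases before the start to 30 bases after it. The windows were EXO1 (chr1:241848084-241848233, plus strand), XRCC2 (chr7:152676112-152676261, minus strand), FANCD2 (chr3:10026317-10026466, plus strand), BLM (chr15:90717226-90717375, plus strand), FANCF (chr11:22625794-22625943, minus strand) and ATM (chr11:108222947-108223096, plus strand). Capitals mark TTTNNCGC (E2F) in EXO1, XRCC2 and FANCD2, CCAAT in BLM and FANCF, and TTTGAA (CHR) in ATM, each as itself or as its reverse complement.
EXO1: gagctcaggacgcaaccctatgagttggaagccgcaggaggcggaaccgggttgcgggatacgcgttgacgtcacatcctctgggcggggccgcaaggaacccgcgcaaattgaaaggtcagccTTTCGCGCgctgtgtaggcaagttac
XRCC2: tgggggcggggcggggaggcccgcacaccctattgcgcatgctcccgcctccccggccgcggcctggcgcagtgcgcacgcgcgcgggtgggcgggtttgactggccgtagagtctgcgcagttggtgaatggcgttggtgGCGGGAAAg
FANCD2: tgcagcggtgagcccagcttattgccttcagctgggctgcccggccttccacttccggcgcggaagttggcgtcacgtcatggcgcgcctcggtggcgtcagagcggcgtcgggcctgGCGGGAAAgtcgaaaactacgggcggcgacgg
BLM: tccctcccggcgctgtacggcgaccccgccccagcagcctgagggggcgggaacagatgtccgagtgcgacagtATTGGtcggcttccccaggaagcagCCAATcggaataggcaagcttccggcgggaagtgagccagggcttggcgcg
FANCF: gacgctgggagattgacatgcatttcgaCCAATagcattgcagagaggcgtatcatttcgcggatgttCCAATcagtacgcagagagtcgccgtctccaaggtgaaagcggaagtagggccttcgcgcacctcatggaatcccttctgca
ATM: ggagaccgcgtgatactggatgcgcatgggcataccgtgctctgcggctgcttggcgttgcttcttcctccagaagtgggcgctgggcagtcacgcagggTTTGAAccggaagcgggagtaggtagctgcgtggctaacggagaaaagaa
The E2F letters began at base 4 in EXO1, base 21 in XRCC2 and base -2 in FANCD2, counted from 0 at the start of the gene. CCAAT letters began at bases -46 and -21 in BLM and at bases -92 and -52 in FANCF, and the CHR letters at base -20 in ATM.

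Over the full RefSeq windows, 250 bases before to 50 after a start, both strands were searched in any promoter entry of a gene. TTTNNCGC was found in 7 of the 33 genes (CHEK2, EXO1, FANCA, FANCC, FANCD2, RMI1 and XRCC2), and in 8.23% of 27305 genes. TTTGAA was found in 4 (ATM, BRIP1, FANCC and UBE2T), and in 18.2% of all genes, and CCAAT in 16, and in 39.7% of all genes. No pair of motifs overlapped. Of the 25 genes with a promoter entry that fell with doxorubicin in both lines, 6 held the E2F letters, 3 the CHR letters and 13 CCAAT. Among the other 8 the numbers were 1, 1 and 3. The 13 genes with none of the 3 motifs in the window included BRCA2, FANCB and RAD51C.

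Library totals ran from 17929732 to 33331334 counts, and the fewest counts of any of the 37 genes in a replicate were 9, for FANCB in A549 with doxorubicin. Counts-per-million (CPM) use TMM-scaled totals and were scaled in each line on its own. In A549, library 2-2 lay nearer to 3 (SD of log2 ratios 0.205 to 0.241 over the 4 groups) than to 2 (0.474 to 0.618), which puts n and p-values of A549 in doubt. Separate cultures are not stated for the replicates of either line, so a p-value here reflects the spread among these samples, which may be technical. Some libraries stood apart. A549 doxorubicin replicate 1 was the lowest of its group for 28 of the 37 genes, with MKI67, a marker of cycling cells, at 9.65 CPM against 35.9 and 56.5 CPM in replicates 2 and 3. SK-MEL-147 palbociclib replicate 2, the library with the lowest total, was the highest of its group for 21 genes, with MKI67 at 47.6 CPM against 8.75, 0.231 and 0.0313 CPM in replicates 1, 3 and 4. SK-MEL-147 INK128 replicate 2 was the lowest of its group for 29 genes. Among SK-MEL-147 controls, replicate 4 was the highest for 26 genes and replicate 1 the lowest for 24. The 20 epithelial markers of A549 summed to 10899 to 12126 CPM with doxorubicin, 11648 to 13157 CPM with palbociclib, 4098 to 4749 CPM with INK128, where 5 of 14 tested were lower and 3 higher, and 7919.7 to 11381 CPM in controls. The 15 melanocyte markers of SK-MEL-147 summed to 306 to 495 CPM with doxorubicin, 199 to 290.1 CPM with palbociclib, 569 to 748 CPM with INK128, where 3 of 8 tested were higher and 1 lower, and 282 to 379 CPM in controls. In SK-MEL-147 controls the melanocyte factor SOX10 averaged 313 CPM, while MLANA was at 0 and TYR at 0.0159 CPM. MITF averaged 12.0 CPM there and 19.6 CPM in A549 controls. The epithelial markers summed to 436 to 555 CPM in SK-MEL-147 controls, above the melanocyte markers, with KRT80 at 337 CPM. In A549 controls KRT8 averaged 4399 CPM, while NKX2-1 and SFTPB were at 0. The 10 fibroblast markers of SK-MEL-147 summed to 63.8 to 135 CPM with doxorubicin, 95.2 to 173 CPM with palbociclib, 8.02 to 25.0 CPM with INK128 and 17.0 to 24.9 CPM in controls. All 3 of them that were tested were higher with doxorubicin and with palbociclib. In SK-MEL-147 controls LUM averaged 19.2 CPM and COL1A1 1.04 CPM, while COL1A2, DCN and POSTN averaged 0.00796, 0.00746 and 0.0169 CPM. In A549 the same markers summed to 29.001 to 42.3 CPM with doxorubicin, 26.7 to 35.4 CPM with palbociclib, 9.35 to 10.9 CPM with INK128 and 8.78 to 23.8 CPM in controls, and of 6 tested 2 were higher with doxorubicin than in controls, 3 with palbociclib and 5 with doxorubicin than with INK128. Of the 12 leukocyte markers 4 were tested in A549, 3 of them higher with doxorubicin. CD3E, CD3D, MS4A1, NKG7 and TYROBP were at 0 in A549 controls, while CD14 averaged 4.604 CPM and ITGAM 3.664 CPM. The 12 markers summed to 35.46 CPM in A549 doxorubicin replicate 1, against 11.81 and 16.04 CPM in replicates 2 and 3. They summed to 10.601 to 22.62 CPM with palbociclib, 13.02 to 17.57 CPM with INK128 and 7.345 to 10.54 CPM in controls. Among all genes tested, INK128 left 19.7% lower than in controls and 20.5% higher for A549 cells. For SK-MEL-147 these shares were 28.9% and 29.8%. Doxorubicin left 22.4% of all genes higher than in A549 controls, and palbociclib 22.2%. For SK-MEL-147 the shares were 30.9% and 29.7%. Over INK128, 19.7% were higher with doxorubicin among A549 cells. Whether the marker counts exceeded these shares was not tested. The part of these marker levels in the results was not tested.

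In control cells the genes covered a wide range of levels. Per kilobase of exon, UBE2T, the ubiquitin carrier of the Fanconi core complex, was the highest in both lines, at 79.4 CPM per kilobase in SK-MEL-147 and 38.9 CPM per kilobase in A549. The clamp gene FANCI followed in A549 at 20.7 CPM per kilobase, and RAD51AP1 in SK-MEL-147 at 23.4 CPM per kilobase. At the low end stood RAD50, at 0.0609 CPM per kilobase in SK-MEL-147 and 0.813 in A549, and RAD51B, at 0.391 and 0.668. The level of RAD50 is uncertain, since 79.7% of its exonic bases are shared with AC116366.3 on the same strand. ATM was also near the bottom in A549, at 1.54 CPM per kilobase.

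With doxorubicin most of the repair genes fell in both lines, though not evenly over their roles: of the 4 damage kinases 2 fell in each line. In A549, 31 of the 37 genes were lower than in control cells and 0 were higher (edgeR quasi-likelihood test, Benjamini-Hochberg adjusted p under 0.05), while over all 19550 genes tested 20.9% were lower and 22.4% higher. The median log2 fold change of the 37 was -1.92, with a range from -3.93 to 0.31, and the median of all genes was 0.00. In SK-MEL-147, 30 were lower and 1, FANCF, was higher, while over all 18516 genes tested 28.9% were lower and 30.9% higher. There the median of the 37 was -1.80, with a range from -5.48 to 0.56, and the median of all genes was 0.02. The genes lower in both lines numbered 28, which is 28 of the 31 in A549 and 28 of the 30 in SK-MEL-147. The share of all genes lower in both lines was not counted, here or for the comparisons with INK128 below. RAD51B, RAD50 and ATM passed the test in neither. In bulk RNA, fewer cells that express a gene and less RNA per cell cannot be told apart.

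Palbociclib, not a DNA-damaging drug, gave similar counts against the same control libraries. In A549, 31 of the 37 were lower and 0 higher (21.1% of all genes lower, 22.2% higher), with a median of -2.12. In SK-MEL-147, 30 were lower and 1 higher (28.7% lower, 29.7% higher), with a median of -1.67. INK128 gave smaller changes. In A549, 21 were lower and 1, ATM, was higher (19.7% lower, 20.5% higher), with a median of -0.84, and in SK-MEL-147, 30 were lower and 3, FANCF, RAD50 and ATM, were higher (28.9% lower, 29.8% higher), with a median of -1.29. Levels of the 37 genes summed to 465 to 562 CPM with doxorubicin, 449 to 473 CPM with palbociclib, 898 to 994 CPM with INK128 and 1376 to 1439 CPM in control cells of A549. In SK-MEL-147 they summed to 427 to 464 CPM with doxorubicin, 469 to 565 CPM with palbociclib, 607 to 825 CPM with INK128 and 1343 to 1699.7 CPM in control cells.

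Proliferation genes fell beside them. All 33 of a list of replication and mitosis genes, none of them among the 37, fell with doxorubicin and with palbociclib in each line, and 31 of 33 fell with INK128 in each. Their summed level was 388 to 1085 CPM with doxorubicin, 403 to 532 CPM with palbociclib, 1974 to 2479 CPM with INK128 and 5559.5 to 5851 CPM in controls of A549. In SK-MEL-147 it was 297 to 323 CPM with doxorubicin, 358 to 898 CPM with palbociclib, 1499.8 to 2017 CPM with INK128 and 4485 to 6733 CPM in controls. The part of cell cycle exit in the falls of the repair genes was not tested.

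**Figure D1:**
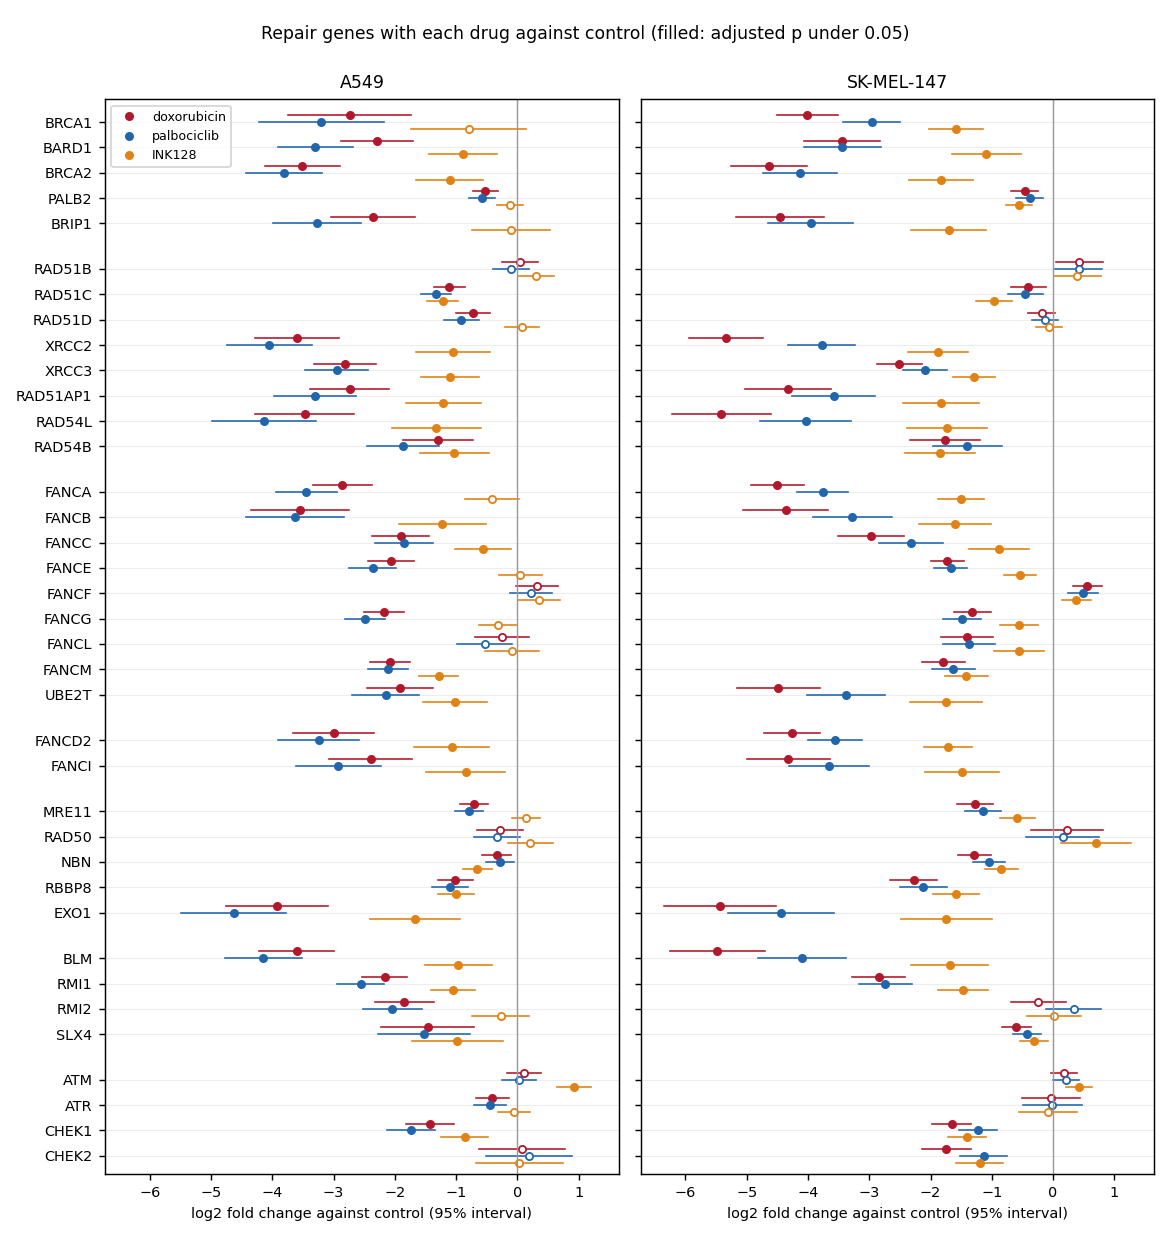
Log2 fold change against control (x axis, with 95% intervals) of each of the 37 repair genes (rows, grouped by role) with doxorubicin, palbociclib and INK128 in A549 (left) and SK-MEL-147 (right); filled points passed the test. Most doxorubicin and palbociclib points lie left of the INK128 points, while RAD51B, FANCF, RAD50 and ATM stay near or right of 0.

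The breast cancer proteins and their partners fell as a group with doxorubicin, all 5 of 5 in each line (medians -2.36 in A549 and -4.01 in SK-MEL-147). BRCA2, which loads the recombinase on single-stranded DNA, had the largest fall of the group in each. In A549 its level was 1.09, 2.55 and 2.99 CPM with doxorubicin, 1.85, 1.98 and 1.58 with palbociclib, 10.2, 13.1 and 12.2 with INK128 and 26.5, 24.1 and 26.0 in control cells. In SK-MEL-147 it was 1.13, 1.45, 0.870 and 1.24 CPM with doxorubicin, 1.58, 2.99, 1.16 and 1.13 with palbociclib, 7.51, 5.66, 9.08 and 10.5 with INK128 and 26.4, 28.1, 26.9 and 35.5 in control cells. In both lines every doxorubicin and palbociclib library lay below every INK128 library, and every INK128 library below every control, while doxorubicin and palbociclib overlapped. Against control, the log2 fold change of BRCA2 with doxorubicin was -3.51 ± 0.28 in A549 (standard error, as for all changes below, which are on the log2 scale; adjusted p 5.3e-06) and -4.64 ± 0.29 in SK-MEL-147 (with an adjusted p of 2.53e-09). BRCA1 and BARD1, which pair into a ubiquitin ligase that favours end trimming, had -2.74 ± 0.46 and -2.29 ± 0.27 in A549 cells and -4.01 ± 0.24 and -3.44 ± 0.30 in SK-MEL-147. The BRCA1-bound helicase gene BRIP1 changed by -2.36 and -4.45 in A549 and SK-MEL-147. PALB2, which bridges BRCA1 and BRCA2, changed least, with -0.52 ± 0.09 and -0.46 ± 0.10 in the same lines.

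Among the recombinase paralogs and motor proteins, 7 of 8 fell with doxorubicin in A549 and 6 of 8 in SK-MEL-147. XRCC2, a paralog that steadies the recombinase filament, went furthest in A549. Its level there was 1.56, 3.64 and 4.18 CPM with doxorubicin, 1.78, 2.61 and 2.52 with palbociclib, 14.6, 23.8 and 17.2 with INK128 and 39.2, 39.9 and 36.3 in control cells. In SK-MEL-147 it was 0.529, 0.495, 0.435 and 0.471 CPM with doxorubicin, 1.11, 2.49, 1.31 and 1.00 with palbociclib, 6.02, 3.87, 6.03 and 5.55 with INK128 and 15.9, 18.1, 25.5 and 19.6 in control cells. The 4 doxorubicin libraries of SK-MEL-147 lay close together and below all of the palbociclib libraries, whereas in A549 these 2 groups overlapped; in both lines INK128 stood between them and control. The log2 fold change with doxorubicin was -3.60 ± 0.31 in A549 cells and -5.34 ± 0.29 in SK-MEL-147 (with an adjusted p of 8.54e-06 and 1.25e-09). RAD54L, a motor ATPase that helps strand invasion and remodels its product, went furthest in SK-MEL-147, with 0.670, 1.55, 0.502 and 0.740 CPM with doxorubicin, 2.19, 4.27, 1.502 and 1.35 with palbociclib, 12.5, 7.05, 13.9 and 10.9 with INK128 and 33.2, 32.6, 40.7 and 41.7 in control cells. In A549 it had 0.662, 1.24 and 2.16 CPM with doxorubicin, 1.13, 0.882 and 0.550 with palbociclib, 5.35, 7.92 and 4.72 with INK128 and 15.6, 14.5 and 15.2 in control cells. Its doxorubicin and palbociclib libraries overlapped in each line and all lay below INK128, and its log2 fold change with doxorubicin was -3.47 ± 0.37 in A549 cells and -5.42 ± 0.38 in SK-MEL-147.

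The paralog RAD51C, which works in a complex with XRCC2 and in another with XRCC3, did not follow that order. In A549 its level was 20.7, 22.2 and 21.3 CPM with doxorubicin, 19.1, 20.2 and 16.0 with palbociclib, 21.4, 20.6 and 17.6 with INK128 and 46.4, 47.0 and 45.4 in control cells. In SK-MEL-147 it was 14.5, 11.9, 16.1 and 15.9 CPM with doxorubicin, 12.4, 12.5, 14.5 and 16.9 with palbociclib, 9.504, 9.40, 9.94 and 10.9 with INK128 and 16.4, 18.6, 20.1 and 22.4 in control cells. All 3 drugs lay below control in A549 with INK128 overlapping both others, and in SK-MEL-147 INK128 was the lowest group, below every doxorubicin and palbociclib library. RAD51C changed by -1.11 ± 0.11 with doxorubicin and -1.22 ± 0.11 with INK128 in A549, and by -0.41 ± 0.14 and -0.96 ± 0.14 in SK-MEL-147. Its fall with doxorubicin in SK-MEL-147 (with an adjusted p of 0.0159) did not hold without control replicate 4, or without doxorubicin replicate 2 (adjusted p 0.0605 to 0.0865). XRCC3 changed by -2.81 in A549 cells and -2.51 in SK-MEL-147 with doxorubicin, RAD51AP1, which stimulates strand invasion, by -2.74 and -4.33, and RAD54B by -1.30 and -1.77. RAD51D fell in A549 (-0.73 ± 0.13) and had -0.19 ± 0.10 in SK-MEL-147 (with an adjusted p of 0.123). RAD51B had 0.04 ± 0.14 and 0.43 ± 0.18 in these lines (adjusted p of 0.818 and 0.0502), and with palbociclib in SK-MEL-147 0.42 ± 0.18 (adjusted p 0.0594, or 0.0422 with the replicate block). With doxorubicin in SK-MEL-147 the block called it higher (0.43, adjusted p 0.0356). So did fits without control replicate 1 or 4 or doxorubicin replicate 3 or 4. With palbociclib it was called higher without control replicate 1 or palbociclib replicate 3.

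The Fanconi core complex and its carrier UBE2T fell in 7 of 9 cases with doxorubicin in A549 and in 8 of 9 in SK-MEL-147. FANCB, which holds the ubiquitin ligase FANCL in the complex, had the largest fall of the group in A549, with 0.350, 0.740 and 1.39 CPM with doxorubicin, 0.960, 0.646 and 0.776 with palbociclib, 4.22, 4.69 and 3.56 with INK128 and 8.13, 10.2 and 10.8 in control cells. In SK-MEL-147 it had 0.458, 0.601, 0.469 and 1.08 CPM with doxorubicin, 1.22, 2.22, 1.46 and 0.814 with palbociclib, 4.31, 2.78, 4.93 and 5.85 with INK128 and 11.1, 13.7, 14.02 and 15.3 in control cells. FANCA, a subunit that binds FANCG, had the largest in SK-MEL-147, with 2.01, 2.23, 2.18 and 2.35 CPM with doxorubicin, 3.77, 4.38, 3.62 and 3.00 with palbociclib, 22.5, 11.3, 18.8 and 17.8 with INK128 and 45.0, 42.9, 61.1 and 50.5 in control cells. Every doxorubicin library of FANCA lay below every palbociclib library there, and both below INK128 and control, while the doxorubicin and palbociclib libraries of FANCB overlapped in each line. FANCA in A549 had 4.28, 5.74 and 8.66 CPM with doxorubicin, 3.91, 3.80 and 4.75 with palbociclib, 28.9, 38.7 and 34.0 with INK128 and 43.1, 45.6 and 46.8 in control cells, again with doxorubicin and palbociclib overlapping. With doxorubicin FANCB changed by -3.55 ± 0.36 in A549 cells and -4.37 ± 0.33 in SK-MEL-147, and FANCA by -2.86 ± 0.22 and -4.51 ± 0.20 (adjusted p 2.44e-05, 1.38e-08, 4.73e-06 and 4.19e-10). UBE2T changed by -1.92 and -4.48 in A549 and SK-MEL-147, FANCC by -1.91 and -2.97, and FANCM, the translocase that anchors the complex on DNA, by -2.08 and -1.80. FANCE, the subunit that contacts FANCD2, changed by -2.06 and -1.72, and FANCG by -2.18 and -1.32. FANCL changed by -1.41 in SK-MEL-147 and had -0.25 ± 0.20 in A549 (adjusted p 0.346), where a fit with the replicate number as a block gave -0.25 (adjusted p 0.0395). With palbociclib in A549 it had -0.54 (adjusted p 0.0515), and -0.55 with the block (adjusted p 0.000606). DESeq2, library size alone and no filter on low counts also called it lower there. So did fits with libraries 2 and 2-2 apart, without the first replicate in every group, or without palbociclib replicate 1.

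FANCF, an adaptor subunit of the core complex, ran against the others. In SK-MEL-147 its level was 40.3, 37.3, 49.1 and 34.7 CPM with doxorubicin, 36.0, 36.6, 44.9 and 36.1 with palbociclib, 37.6, 36.98, 34.2 and 33.5 with INK128 and 26.5, 27.7, 26.0 and 29.4 in control cells. In A549 it was 24.1, 18.4 and 18.0 CPM with doxorubicin, 20.2, 18.8 and 17.7 with palbociclib, 25.4, 19.1 and 17.2 with INK128 and 15.5, 16.4 and 16.7 in control cells. Every library of every drug lay above every control library in each line, and the 3 drugs overlapped one another. In SK-MEL-147 it rose with doxorubicin (0.56 ± 0.11, adjusted p 0.000407), with palbociclib (0.49 ± 0.11, adjusted p 0.00137) and with INK128 (0.38 ± 0.11, adjusted p 0.00894). In A549 the changes were 0.31 ± 0.16, 0.22 ± 0.16 and 0.35 ± 0.16 with the same drugs and did not pass (adjusted p 0.128, 0.275 and 0.0994), though with the replicate block that of INK128 did (0.32, adjusted p 0.0416). About 11.3% of the exonic bases of FANCF lie opposite GAS2, and whether the counts used strand is not given in the sources used here.

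FANCD2 and FANCI, which form the clamp that the core complex marks with ubiquitin, both fell with doxorubicin in each line. FANCD2 had 2.29, 2.76, 2.18 and 1.98 CPM with doxorubicin, 3.84, 5.82, 3.12 and 2.35 with palbociclib, 15.0, 12.8, 13.97 and 12.0 with INK128 and 42.2, 47.2, 44.1 and 42.7 in control cells in SK-MEL-147. In A549 it had 3.97, 7.96 and 10.7 CPM with doxorubicin, 4.70, 7.10 and 7.27 with palbociclib, 26.1, 31.0 and 29.1 with INK128 and 52.6, 58.4 and 70.7 in control cells. For FANCI the values were 6.67, 8.02, 6.86 and 5.18 CPM with doxorubicin, 9.58, 19.4, 7.40 and 6.48 with palbociclib, 49.8, 28.1, 59.3 and 53.8 with INK128 and 110.5, 119.99, 148 and 156 in control cells in SK-MEL-147. All doxorubicin and palbociclib libraries of both genes lay below INK128, and INK128 below control, and the highest palbociclib library of SK-MEL-147 was replicate 2 for each. In A549 FANCI had 14.9, 32.7 and 43.8 CPM with doxorubicin, 17.4, 23.5 and 22.5 with palbociclib, 79.0, 107 and 82.0 with INK128 and 150.2, 167 and 164 in control cells, in the same order. FANCD2 changed by -3.00 ± 0.30 with doxorubicin in A549 cells and by -4.26 ± 0.22 in SK-MEL-147, and FANCI by -2.39 ± 0.31 and -4.32 ± 0.32 (adjusted p 2.1e-05, 7.54e-10, 0.000112 and 1.2e-08). Without A549 doxorubicin replicate 1, the lowest of its group for both, 30 of the 37 genes were still called lower in that comparison.

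**Figure D2:**
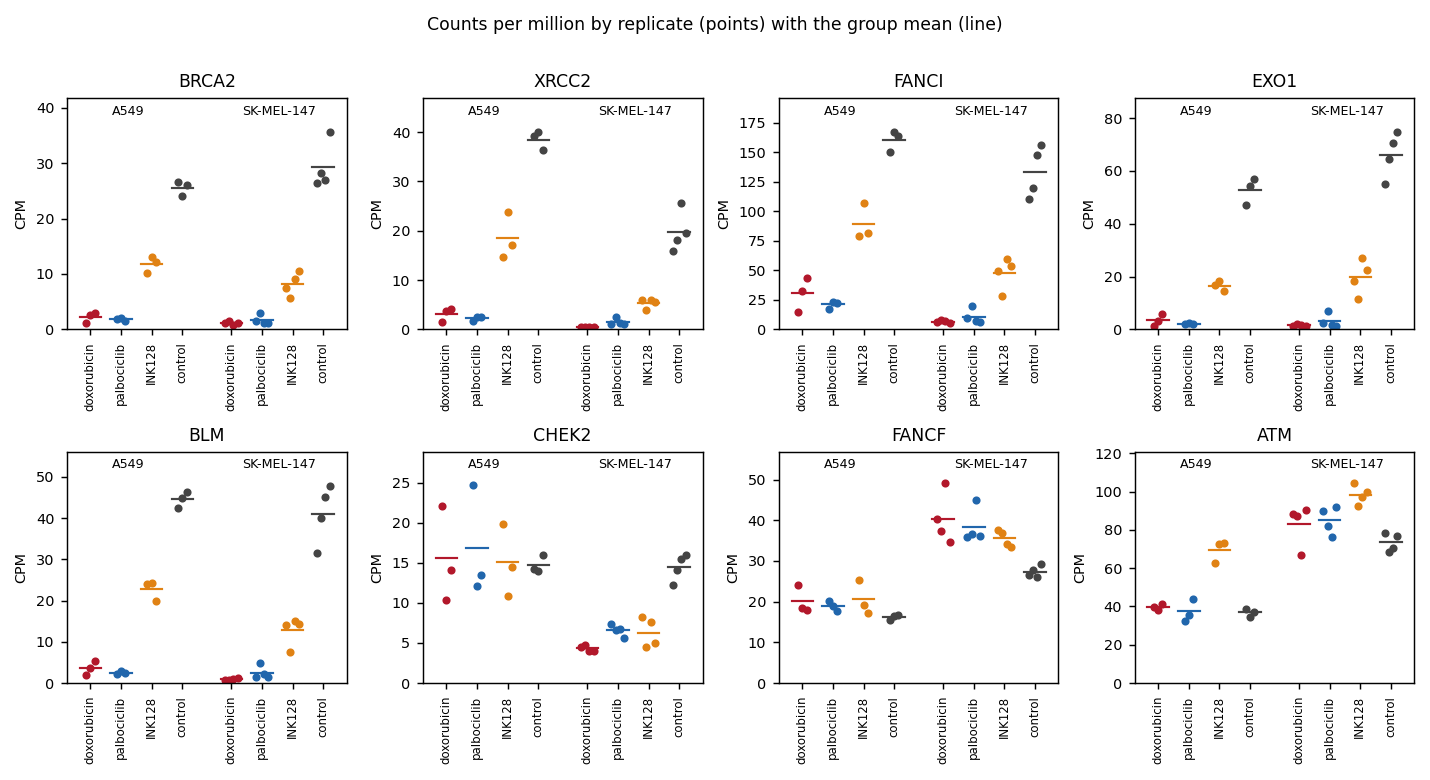
Counts-per-million (y axis, from 0) of BRCA2, XRCC2, FANCI, EXO1, BLM, CHEK2, FANCF and ATM by line and treatment (x axis); each point is a replicate and each line a group mean. The first 5 genes step up from doxorubicin and palbociclib to INK128 and to control in both lines, CHEK2 is below control in SK-MEL-147 with every drug, FANCF is above control with every drug, and ATM is highest with INK128.

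End resection genes split between EXO1 and the others. EXO1, the exonuclease of long-range resection, had the largest fall with doxorubicin of all 37 genes in A549 (-3.93 ± 0.38, adjusted p 1.65e-05), and had -5.44 ± 0.43 in SK-MEL-147 (with an adjusted p of 2.37e-08). Its level in A549 was 1.28, 3.23 and 5.88 CPM with doxorubicin, 2.02, 2.32 and 2.00 with palbociclib, 16.7, 18.3 and 14.7 with INK128 and 47.2, 54.2 and 57.0 in control cells. SK-MEL-147 cells had 1.38, 1.91, 1.64 and 1.18 CPM with doxorubicin, 2.48, 7.15, 1.73 and 1.38 with palbociclib, 18.2, 11.6, 26.9 and 22.4 with INK128 and 55.0, 64.7, 70.6 and 74.6 in control cells. In each line doxorubicin and palbociclib overlapped and lay below every INK128 library, and all 3 drugs below control. RBBP8, whose product CtIP switches on the MRE11 nuclease, changed by -1.01 in A549 cells and -2.28 in SK-MEL-147. Of the MRE11-RAD50-NBN complex, which finds broken ends, MRE11 changed by -0.71 and -1.28.

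NBN, the subunit that brings ATM to the break, had 80.1, 75.2 and 76.1 CPM with doxorubicin, 87.3, 78.4 and 74.2 with palbociclib, 67.6, 55.6 and 63.2 with INK128 and 98.5, 99.7 and 94.7 in control cells in A549. In SK-MEL-147 it had 35.5, 36.0, 38.7 and 39.8 CPM with doxorubicin, 41.3, 47.7, 43.7 and 44.3 with palbociclib, 41.8, 44.9, 54.4 and 62.7 with INK128 and 79.3, 96.4, 82.9 and 107 in control cells. All drugs lay below control in both lines, but in A549 INK128 was the lowest group and did not overlap doxorubicin or palbociclib, whereas in SK-MEL-147 doxorubicin was the lowest and lay below every palbociclib and INK128 library. NBN changed with doxorubicin by -0.34 ± 0.11 in A549 (adjusted p 0.0222) and by -1.29 ± 0.13 in SK-MEL-147 (with an adjusted p of 2.36e-07). The A549 call was lost without control replicate 1 or 2 or without doxorubicin replicate 2 or 3 (adjusted p over all lost settings 0.055 to 0.0768). RAD50 had -0.29 ± 0.17 in A549 cells and 0.23 ± 0.28 in SK-MEL-147 and passed in neither (adjusted p of 0.193 and 0.491), and with palbociclib in A549 the replicate block brought its -0.33 to -0.34 and past the threshold (adjusted p 0.144 without the block and 0.0443 with it). Its counts are uncertain, since 79.7% of its exonic bases are shared with AC116366.3 on the same strand, and in SK-MEL-147 controls it averaged 0.595 ± 0.0783 CPM (SD, n = 4).

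Genes for resolving joined chromosomes fell in 4 of 4 cases with doxorubicin in A549 and in 3 of 4 in SK-MEL-147. BLM, the helicase that dissolves double Holliday junctions, had the largest fall of all 37 genes in SK-MEL-147 (-5.48 ± 0.37, adjusted p 4.83e-09). Its level there was 0.635, 0.848, 1.00 and 1.18 CPM with doxorubicin, 1.47, 4.77, 2.27 and 1.38 with palbociclib, 14.003, 7.65, 15.1 and 14.3 with INK128 and 31.5, 40.1, 45.0 and 47.8 in control cells. In A549 it was 1.99, 3.54 and 5.43 CPM with doxorubicin, 2.09, 2.95 and 2.42 with palbociclib, 24.0, 24.2 and 19.96 with INK128 and 42.4, 45.0 and 46.3 in control cells, with a change of -3.60 ± 0.28 with doxorubicin (adjusted p 4.76e-06). Every doxorubicin library of SK-MEL-147 lay below every palbociclib library, both below INK128, and INK128 below control; in A549 doxorubicin and palbociclib overlapped. RMI1, which joins BLM to its topoisomerase, changed by -2.17 in A549 cells and -2.85 in SK-MEL-147. SLX4, a scaffold for nucleases that cut such junctions, changed by -1.47 and -0.60. RMI2, a small partner of BLM and RMI1, fell in A549 (-1.84 ± 0.22, adjusted p 6.58e-05), where it averaged 6.84 ± 1.60 CPM with doxorubicin and 24.5 ± 1.66 CPM in control cells (SD, n = 3 each). In SK-MEL-147 it averaged 3.37 ± 0.235 CPM with doxorubicin and 3.98 ± 0.979 CPM in control cells (SD, n = 4 each), the groups overlapped, and the change of -0.24 ± 0.21 did not pass (adjusted p 0.338).

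The damage kinases behaved apart from one another. CHEK1, the effector kinase below ATR, fell with doxorubicin in both lines, with changes of -1.43 in A549 cells and -1.66 in SK-MEL-147 (with an adjusted p of 8.51e-05 and 9.67e-08). It had 13.6, 18.6 and 19.2 CPM with doxorubicin, 10.9, 17.3 and 13.5 with palbociclib, 25.0, 28.2 and 23.1 with INK128 and 46.2, 47.9 and 44.7 in control cells in A549. In SK-MEL-147 it had 15.4, 17.0, 15.9 and 17.9 CPM with doxorubicin, 18.4, 23.0, 25.4 and 22.7 with palbociclib, 17.3, 16.7, 24.2 and 20.9 with INK128 and 44.0, 47.4, 51.0 and 66.8 in control cells. Every drug lay below control in each line, with doxorubicin below every palbociclib library and overlapping INK128 in SK-MEL-147. CHEK2, the effector below ATM, had 4.55, 4.77, 3.98 and 3.94 CPM with doxorubicin, 7.35, 6.59, 6.78 and 5.57 with palbociclib, 8.21, 4.44, 7.61 and 4.94 with INK128 and 12.2, 14.05, 15.4 and 16.0 in control cells in SK-MEL-147. In A549 it had 22.1, 10.3 and 14.2 CPM with doxorubicin, 24.8, 12.1 and 13.5 with palbociclib, 19.8, 10.9 and 14.5 with INK128 and 14.2, 13.9 and 16.0 in control cells. In SK-MEL-147 every drug lay below control and doxorubicin below every palbociclib library, while it overlapped INK128 through INK128 replicate 2. All 4 groups overlapped in A549. CHEK2 changed by -1.74 with doxorubicin in SK-MEL-147 (with an adjusted p of 6.01e-07) and had 0.07 ± 0.32 in A549 (adjusted p 0.87).

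ATM, the kinase that answers double-strand breaks, did not pass against control with doxorubicin in either line (0.11 ± 0.13 in A549 cells and 0.18 ± 0.10 in SK-MEL-147, with an adjusted p of 0.524 and 0.139). In SK-MEL-147 it was called higher when doxorubicin replicate 3, its lowest doxorubicin library, was left out. Its level in A549 was 39.7, 38.0 and 41.2 CPM with doxorubicin, 32.3, 35.8 and 44.1 with palbociclib, 62.6, 72.6 and 73.1 with INK128 and 38.6, 34.7 and 37.2 in control cells. SK-MEL-147 cells had 88.2, 87.4, 67.1 and 90.3 CPM with doxorubicin, 89.9, 82.2, 76.5 and 91.7 with palbociclib, 104, 92.2, 97.4 and 99.7 with INK128 and 78.2, 68.3, 70.7 and 76.9 in control cells. INK128 was the highest group in each line and overlapped no other, while doxorubicin, palbociclib and control overlapped. ATM rose with INK128 by 0.91 in A549 (adjusted p 0.000361) and by 0.42 in SK-MEL-147 (with an adjusted p of 0.00213). With palbociclib in SK-MEL-147 it had 0.21 ± 0.10 (adjusted p 0.0851), and 0.21 with the replicate block (adjusted p 0.0348). Without palbociclib replicate 3 it was also called higher there. ATR, which answers single-stranded DNA at stalled forks, changed by -0.41 with doxorubicin in A549 (adjusted p 0.0177), a call lost without control replicate 3 or doxorubicin replicate 1 (adjusted p over all lost settings 0.0505 to 0.206), and had -0.03 ± 0.22 in SK-MEL-147 (with an adjusted p of 0.907).

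Doxorubicin was set against palbociclib to ask whether the DNA-damaging inducer left these genes at another level than the other inducer of senescence. None of the 37 passed the test in either line. In A549 0 of 19550 genes passed in either direction, and 0% is the background for that count; 4 of the 37 had an unadjusted p under 0.05, while 4.45% of all genes did. In SK-MEL-147 0.0594% of 18516 genes passed, 0.0432% lower and 0.0162% higher, and 16 of the 37 had an unadjusted p under 0.05, while 12.4% of all genes did. Estimates leaned opposite ways in the 2 lines. In A549, 34 of 37 lay above 0 (median 0.23, range -0.11 to 1.01), and in SK-MEL-147, 32 of 37 lay below 0 (median -0.36, range -1.57 to 0.17). The 33 proliferation genes leaned the same ways, with medians of 0.81 in A549 and -1.49 in SK-MEL-147, where 2 passed. Their part in the repair genes' estimates was not tested.

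Single genes show how far the intervals reach. In SK-MEL-147, XRCC2 was nearest to the threshold, at -1.57 ± 0.29 (95% interval -2.19 to -0.95, adjusted p 0.0522). RAD54L had -1.38 ± 0.38 (interval -2.18 to -0.58), BLM -1.37 ± 0.37 (interval -2.15 to -0.60), UBE2T -1.10 ± 0.29 (interval -1.72 to -0.49) and BRCA1 -1.05 ± 0.23 (interval -1.52 to -0.57, adjusted p 0.073). The intervals of these 5, which are not adjusted for the number of genes, leave out 0. At the other end, ATM had an interval of -0.25 to 0.18, PALB2 of -0.30 to 0.14 and FANCF of -0.17 to 0.31, which are narrow around 0. Every doxorubicin library lay below every palbociclib library for 8 of the 37 in SK-MEL-147 (BRCA1, XRCC2, FANCA, NBN, BLM, RMI2, CHEK1 and CHEK2) and above for 0, against 3.7% and 3.03% of all genes. With the replicate number as a block 1.84% of all genes passed, and 3 of the 37 passed and were lower with doxorubicin: XRCC2 (-1.55, adjusted p 0.0343), BRCA1 (-1.04, 0.0428) and FANCC (-0.67, 0.0452). DESeq2 called 2.41% of all genes and 8 of the 37, all lower (BRCA1, XRCC2, RAD54L, FANCA, FANCB, UBE2T, FANCD2 and BLM). Without palbociclib replicate 4, edgeR called 0.746% of all genes and 4 of the 37 (XRCC2, UBE2T, FANCD2 and BRCA1), and without palbociclib replicate 2, the library with high MKI67, 0.00529% and 0.

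In A549 BARD1 had the largest estimate of the 37 (1.01 ± 0.27, interval 0.42 to 1.61) and BRIP1 had 0.91 ± 0.32 (interval 0.22 to 1.60), and neither passed (adjusted p of 0.786 and 0.945). BARD1 was at 2.37, 4.75 and 5.92 CPM with doxorubicin and 1.99, 2.21 and 2.30 CPM with palbociclib, and BRIP1 at 2.26, 4.87 and 7.24 CPM with doxorubicin and 1.99, 3.01 and 2.59 CPM with palbociclib. Doxorubicin replicate 1 was the lowest doxorubicin library for both, and without it both were called higher with doxorubicin, as were 0.314% of all genes. Libraries of doxorubicin lay above those of palbociclib without overlap for 3 of the 37 (BARD1, RAD51C and FANCE) and below for 0, against 3.9% and 3.89% of all genes. XRCC2 had an interval of -0.23 to 1.11 in A549, BLM of -0.06 to 1.14 and ATM of -0.19 to 0.36. DESeq2 called 0 of the 37 and 0.187% of all genes in this line.

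**Figure D3:**
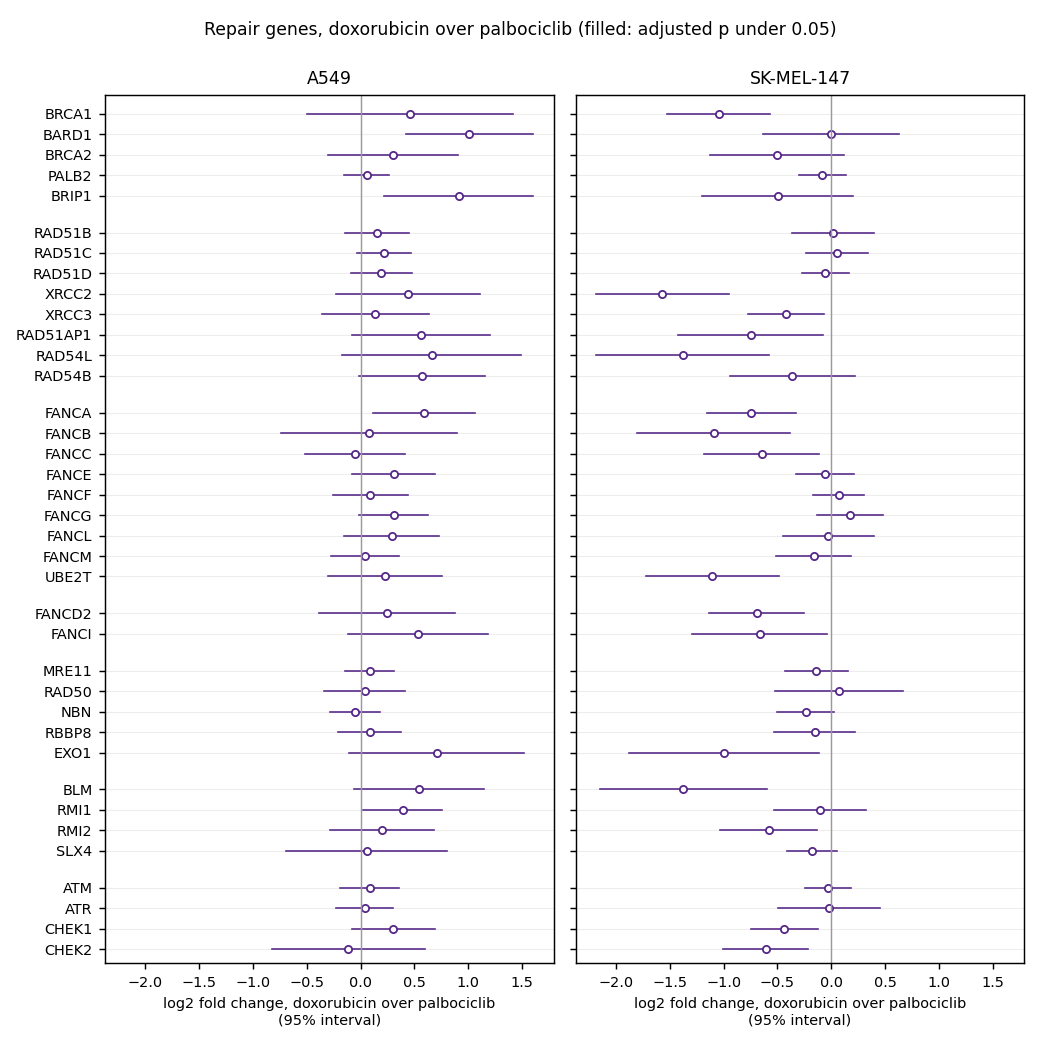
Log2 fold change of doxorubicin over palbociclib (x axis, with 95% intervals) for the 37 repair genes (rows, grouped by role) in A549 (left) and SK-MEL-147 (right). All points are open because none passed the test, most of those in A549 lie right of 0 (34 of 37), and most of those in SK-MEL-147 lie left of it (32 of 37), with XRCC2 the furthest.

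Set against INK128, doxorubicin left most of the repair genes lower. In A549, 28 of 37 were lower and 1, NBN, was higher, while 21.2% of all genes were lower and 19.7% higher, and the median of the 37 was -1.11. In SK-MEL-147, 25 were lower and 1, RAD51C, was higher, while 24.8% of all genes were lower and 24% higher, and the median of the 37 was -0.85. Genes lower in both lines numbered 20, which is 20 of the 28 in A549 and 20 of the 25 in SK-MEL-147. BLM had the largest difference in each line, -2.63 ± 0.27 in A549 cells and -3.79 ± 0.35 in SK-MEL-147 (with an adjusted p of 4.79e-05 and 7.06e-07). It was followed in SK-MEL-147 by EXO1 (-3.69 ± 0.41), RAD54L (-3.68 ± 0.37) and XRCC2 (-3.46 ± 0.28), and in A549 by XRCC2 (-2.55 ± 0.30), FANCA (-2.44 ± 0.22) and BRCA2 (-2.40 ± 0.27). FANCI differed by -1.55 and -2.84 in A549 and SK-MEL-147, and FANCD2 by -1.92 and -2.54. INK128 replicate 2 of SK-MEL-147, the lowest of its group for 29 genes, did not move the count, which was again 26 without it. The set changed, as FANCM was called without it and SLX4 was not.

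The other 17 genes were not lower in both lines. Of these, FANCF, RAD51B, RAD54B and RAD51C passed as lower in neither line. ATM, ATR, CHEK1, FANCM, PALB2, RAD50, RAD51D and RMI2 passed as lower in A549 and not in SK-MEL-147, and CHEK2, FANCL, NBN, RBBP8 and SLX4 in SK-MEL-147 and not in A549; the difference between the lines was not tested for this comparison. RAD51C was higher with doxorubicin than with INK128 in SK-MEL-147 (0.55 ± 0.14, adjusted p 0.0032), with no overlap between the groups, and had 0.11 ± 0.11 in A549 (adjusted p 0.48). NBN was higher with doxorubicin in A549 (0.31 ± 0.11, adjusted p 0.0341) and lower in SK-MEL-147 (-0.44 ± 0.13, adjusted p 0.00793). The A549 call of NBN was lost when any 1 of the 3 doxorubicin libraries or INK128 replicate 2 or 3 was left out (adjusted p over all lost settings 0.0548 to 0.157). RBBP8 had -0.00 ± 0.13 in A549 and changed by -0.69 in SK-MEL-147 relative to INK128, and RAD54B had -0.27 ± 0.26 and 0.07 ± 0.28 in these lines, passing in neither. ATM was lower with doxorubicin than with INK128 in A549 (-0.81 ± 0.13, adjusted p 0.000533) and had -0.24 ± 0.10 in SK-MEL-147 (adjusted p 0.0589; 0.0173 with the replicate block). CHEK2 was lower in SK-MEL-147 (-0.55, adjusted p 0.0226), a call lost without doxorubicin replicate 3 or 4 or INK128 replicate 1 or 3, and had 0.04 ± 0.32 in A549. The SLX4 call in SK-MEL-147 was lost in 9 of 14 alternatives, DESeq2 among them and 6 with a single replicate left out (adjusted p over all lost settings 0.0555 to 0.26). In A549 the call of ATR (-0.35) was lost in 13 of 16 alternatives, with each of the 6 single replicates left out among them. RAD50 (-0.50) lost it in 7 of 16, 3 of them with a single replicate left out. CHEK1 (-0.57) lost it in 2 and UBE2T (-0.90) in 1, each with a single replicate left out.

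**Figure D4:**
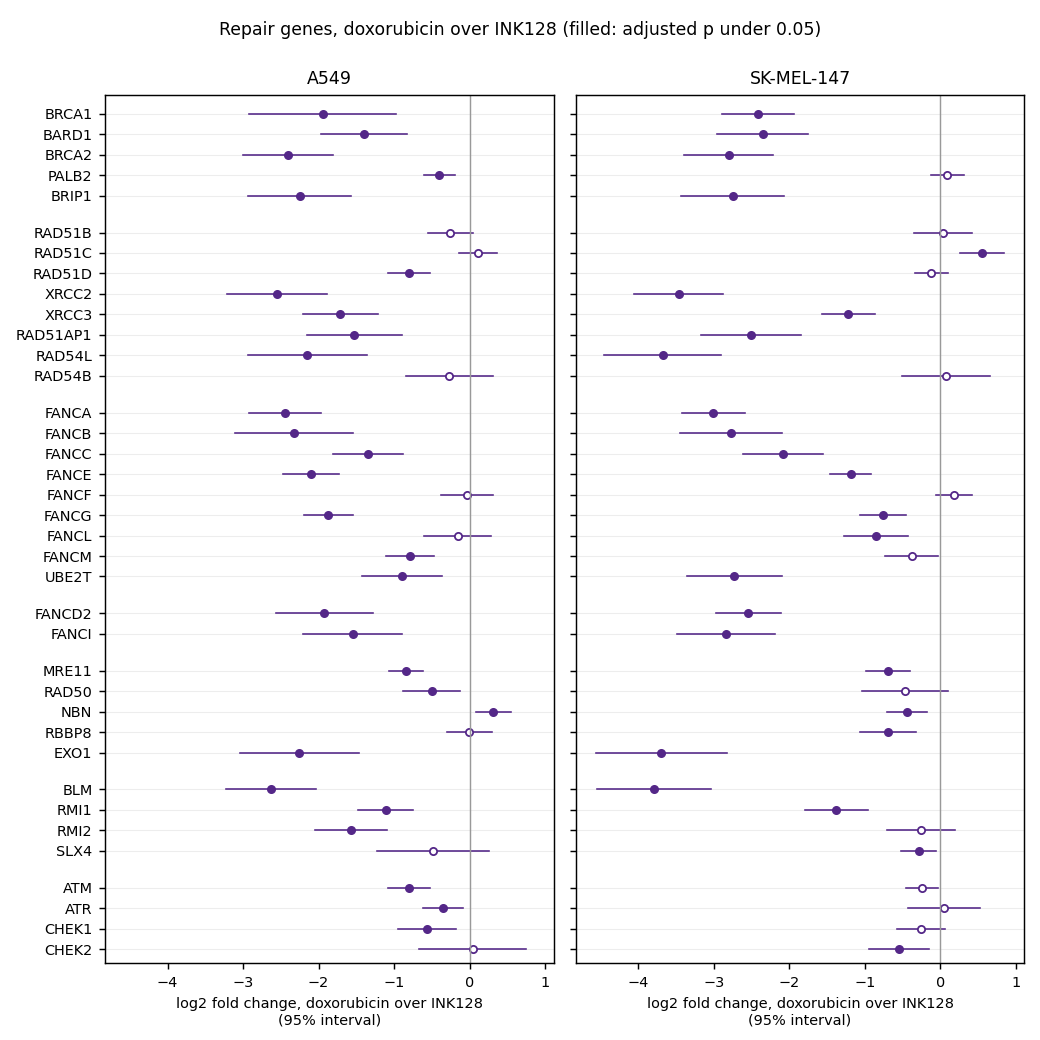
Log2 fold change of doxorubicin over INK128 (x axis, with 95% intervals) for the 37 repair genes (rows, grouped by role) in A549 (left) and SK-MEL-147 (right); filled points passed the test. The points of 28 genes in A549 and 25 in SK-MEL-147 are filled and left of 0, and the filled points right of 0 are NBN in A549 and RAD51C in SK-MEL-147.

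INK128 was used at 100 nM in SK-MEL-147 and at 200 nM in A549, so its changes in the lines are given side by side without a test. With INK128 in SK-MEL-147 the changes ran from -1.88 for XRCC2 to 0.70 for RAD50, and in A549 from -1.67 for EXO1 to 0.91 for ATM. The genes lower in both lines numbered 21, which is all 21 called in A549 and 21 of the 30 in SK-MEL-147. Some of these calls were not stable. In A549 SLX4 lost the call in 8 of 16 alternatives, FANCI in 7, FANCC in 6, BARD1 in 2, and FANCB and XRCC2 in 1 each. In SK-MEL-147 SLX4 lost it in 6 of 14 and FANCL in 4, and the rise of FANCF was lost in 1. BRIP1 changed by -1.70 in SK-MEL-147 and had -0.11 ± 0.29 in A549, FANCA had -1.50 and -0.41, and BRCA1 -1.59 and -0.79. None of these 3 passed in A549, where a replicate block brought BRCA1 (-0.86, adjusted p 0.0305), FANCA (-0.42, 0.0376) and FANCG (-0.32, 0.0323) past the threshold. The rise of RAD50 in SK-MEL-147 (with an adjusted p of 0.0368) rested on 0.919, 1.06, 1.09 and 0.814 CPM with INK128 and 0.567, 0.498, 0.648 and 0.669 CPM in control cells, and was lost without any 1 of the 4 control libraries or INK128 replicate 2 or 3.

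The same dose of doxorubicin was given to both lines, so their responses could be set against each other, as SK-MEL-147 minus A549 in a fit of all 8 groups. The difference passed for 23 of the 37 genes. It was negative, a change further below 0 in SK-MEL-147, for 20, and positive for 3 (RAD51C, FANCG and RMI2), while over 21761 genes tested 19.8% passed, 11.3% negative and 8.49% positive. UBE2T had the largest, -2.68 ± 0.42 (95% interval -3.54 to -1.83, adjusted p 5.25e-05). It was at 6.60, 6.82, 4.65 and 5.38 CPM with doxorubicin and 99.2, 125, 150.2 and 150.5 CPM in control cells of SK-MEL-147, and at 21.3, 13.98 and 15.8 CPM with doxorubicin and 62.1, 69.9 and 60.9 CPM in control cells of A549. The doxorubicin libraries lay below the controls without overlap in each line. Next came BRIP1 (-2.21 ± 0.46), RAD54L (-2.06 ± 0.53), FANCI (-2.04 ± 0.44) and BLM (-1.99 ± 0.46). CHEK2 (-1.94 ± 0.37, adjusted p 0.00048) and FANCL (-1.28 ± 0.31, adjusted p 0.00365) fell in SK-MEL-147 and had 0.07 and -0.25 in A549.

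RMI2 had the largest positive difference, 1.49 ± 0.31 (adjusted p 0.00122), followed by FANCG (0.75 ± 0.21, adjusted p 0.0115) and RAD51C (0.59 ± 0.19, adjusted p 0.0262). RAD51C lost the call in 7 of 23 alternatives, 5 of them with a single replicate left out (SK-MEL-147 doxorubicin replicate 3 or 4, A549 control replicate 1 or 2, or A549 doxorubicin replicate 3; adjusted p over all lost settings 0.0506 to 0.147), and FANCG lost it without the first replicate in every A549 group (adjusted p 0.0765). The difference did not pass for 14 genes, among them FANCB (-0.93 ± 0.48, interval -1.92 to 0.07), XRCC3 (0.19 ± 0.28), ATM (-0.04 ± 0.16, interval -0.37 to 0.28) and FANCF (0.13 ± 0.19). Across the 37 genes the log2 fold changes with doxorubicin in the 2 lines had a Pearson r of 0.878, as a description, since genes are not independent samples. Proliferation genes differed the same way, 24 of 33 negative and 0 positive, with a median of -2.68 against -0.93 for the 37, and the part of that in the repair genes was not tested. The median over all genes was -0.10 with TMM and 0.06 with library size alone, with 1848 genes positive and 2455 negative under TMM and 2485 positive and 1755 negative under library size. The sign was not stable under TMM either. There the median was 0.07 to 0.10 when a single SK-MEL-147 control was left out. It was 0.09 with A549 library 2 alone and with libraries 2 and 2-2 apart. Without single SK-MEL-147 controls, 13 to 15 of the 37 were negative and 4 positive. Under library size 4 of the 37 were positive and 14 negative, and BRCA1, BARD1, BRCA2, MRE11, EXO1 and RMI1 no longer passed. Without A549 doxorubicin replicate 1 there were again 23, 20 negative and 3 positive, and without A549 doxorubicin replicate 3 there were 16.

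**Figure D5:**
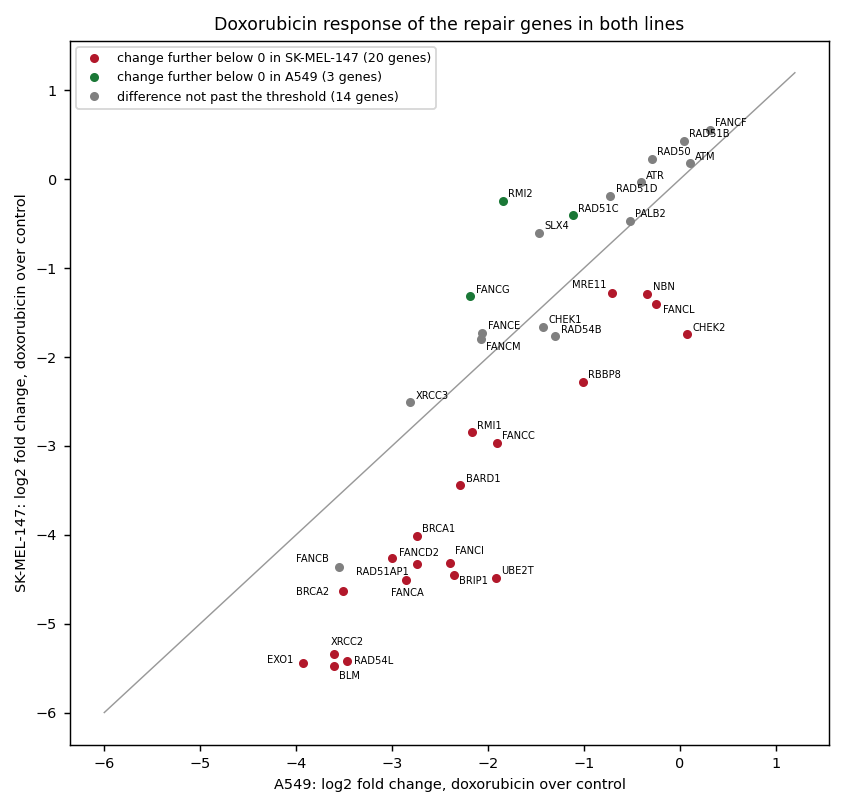
Log2 fold change with doxorubicin over control in SK-MEL-147 (y axis) and A549 (x axis) for the 37 repair genes, 1 point each; the line marks equal change. Colour shows the test of the difference between the lines: 20 genes lie significantly below the line, 3 (RMI2, FANCG and RAD51C) above it, and 14 did not pass.

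Other genes of these pathways were read from fixed lists in the same fits. For comparison, doxorubicin left 20.9% of all genes lower than in A549 controls and 22.4% higher. For SK-MEL-147 these shares were 28.9% and 30.9%. Of 47 further Fanconi and recombination genes, 29 were lower and 2 higher with doxorubicin in A549 (median -0.77) and 28 lower and 8 higher in SK-MEL-147 (median -0.73). Among them POLQ, the polymerase of microhomology-mediated joining, had -3.34 ± 0.33 in A549 and -5.28 ± 0.43 in SK-MEL-147, and MND1, a meiotic strand-exchange factor, -3.58 ± 0.35 and -4.91 ± 0.44. Of 17 end joining genes tested, 10 were lower and 1 higher in A549 (median -0.47) and 9 lower and 3 higher in SK-MEL-147 (median -0.55). APLF, an accessory factor of end ligation, rose in both (1.40 ± 0.24 and 2.47 ± 0.42), and RIF1, which protects ends from resection, fell (-1.22 ± 0.12 and -1.36 ± 0.14). Of 15 other damage signalling genes, 12 were lower and 0 higher in A549 and 13 lower and 0 higher in SK-MEL-147, with CLSPN, which carries the signal of ATR to CHEK1, at -3.11 ± 0.40 and -6.36 ± 0.53 and the histone gene H2AX at -2.17 ± 0.17 and -2.69 ± 0.19. With palbociclib CLSPN (-4.82 and -5.09), H2AX (-2.58 and -2.26), POLQ (-3.94 and -3.58) and MND1 (-4.23 and -4.96) fell too. INK128 gave -1.70 and -2.37 for CLSPN and -1.17 and -1.75 for POLQ.

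Targets of p53 went the other way with doxorubicin, with 10 of 15 higher and 0 lower in A549 (median 1.27) and 13 higher and 1 lower in SK-MEL-147 (median 1.16). CDKN1A, the p53-induced inhibitor of cell cycle kinases, rose by 2.47 ± 0.29 and 2.45 ± 0.29 in A549 and SK-MEL-147. It also rose with palbociclib in A549 (2.08 ± 0.29) and with INK128 in SK-MEL-147 (1.38 ± 0.28). In A549 the 15 targets summed to 1611 to 2134 CPM with doxorubicin and 1199 to 1759 CPM with palbociclib. There they summed to 568 to 675 CPM with INK128 and 831 to 912 CPM in controls. The SK-MEL-147 sums were 3642 to 4858 CPM with doxorubicin and 2448 to 3800 CPM with palbociclib. They were 2315 to 2953 CPM with INK128 and 1105 to 2175 CPM in controls. With doxorubicin over palbociclib 0 of the 15 passed in either line, though 14 of 15 estimates in A549 and 15 of 15 in SK-MEL-147 lay above 0 (medians 0.35 and 0.48). With doxorubicin over INK128, 14 were higher and 0 lower in A549, and 7 higher and 2 lower in SK-MEL-147. Over INK128 the further Fanconi and recombination genes had 22 lower and 3 higher in A549 and 26 lower and 5 higher in SK-MEL-147. The shares of all genes over INK128 were 21.2% lower and 19.7% higher for A549 cells. For SK-MEL-147 they were 24.8% and 24%.

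Several of the 37 genes share exonic bases with another gene in GENCODE 29, and their values are less certain. On the same strand this concerned RAD54B (59.1% shared with FSBP) and RAD51D (8.87%) beside RAD50. On the opposite strand it concerned XRCC3 (76.7%, KLC1), RAD54L (25.1%, LRRC41), FANCA (23.6%, ZNF276), FANCL (19.7%, AC007250.1 and VRK2) and ATR (16.4%), whose counts could include the partner if strand was not used.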

How the data were processed

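Illumina stranded mRNA libraries were read as counts per gene in 32 samples. Per the submitters' processing notes, STAR 2.7.10a, featureCounts and the build GRCh38.p13 were used; the annotation release and the strand setting of the counting are not given in the sources used here. The authors deposited 1 table of raw counts, with no normalization. The 37 genes and all gene lists were chosen with earlier results of these data known.

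Each line was fitted on its own in R 4.3.3 with edgeR 4.0.16: TMM scaling, filterByExpr by group, all 4 groups of the line, quasi-likelihood F tests and Benjamini-Hochberg adjustment over all genes tested, with a threshold of 0.05. The response to doxorubicin was compared between lines in 1 fit of all 8 groups. Standard errors are the log2 fold change divided by the square root of F. The edgeR steps were tested on simulated data. A549 libraries 2 and 2-2 were added. Overlaps with other genes and exon lengths came from GENCODE 29. Values of every library are given for the genes with the largest fall and the largest rise past the threshold in each role group, with doxorubicin against control, palbociclib or INK128 in either line. Those of BARD1, BRIP1, UBE2T and RAD50 were added after their values were seen. From each other list at most the 3 called genes with the largest change were named.

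Same-numbered replicates deviated together in every A549 comparison (correlations 0.164 to 0.815) and in the SK-MEL-147 comparisons other than doxorubicin against control (0.0769 to 0.284), by the rule that every pair exceed 0.1, so fits with the replicate number as a block stand beside results whose call they change. Alternatives were DESeq2 1.42.0, DESeq2 size factors, library size alone, no filter on low counts, only the 2 groups compared, other treatments of A549 library 2, and each replicate left out.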

Additional observations from a re-analysis of the deposited data

Results flagged for a closer look

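In SK-MEL-147, where each group had 4 libraries, 1 library stood far from the other 3 in 8 of 148 groups of values; chance alone marks about 1 in 20 groups. With doxorubicin, RAD51D was at 26.6 CPM in replicate 3 against 22.6 to 23.3 CPM in the others, FANCL at 14.4 CPM in replicate 1 against 12.5 to 12.7 CPM, and ATM at 67.1 CPM in replicate 3 against 87.4 to 90.3 CPM. With palbociclib, FANCF was at 44.9 CPM in replicate 3 against 36.0 to 36.6 CPM, and FANCM at 8.59 CPM in replicate 2 against 6.28 to 6.42 CPM. With INK128, RAD51AP1 was at 9.57 CPM in replicate 2 against 19.0 to 19.6 CPM, and BLM at 7.65 CPM in the same library against 14.003 to 15.1 CPM. In control cells PALB2 was at 25.8 CPM in replicate 4 against 23.4 to 23.7 CPM. Of the libraries named here, palbociclib replicate 2, INK128 replicate 2 and control replicate 4 also stood apart for many of the other genes.

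The change with doxorubicin differed between the lines by the test of the difference itself for 23 genes (edgeR quasi-likelihood test, adjusted p under 0.05), given here as SK-MEL-147 minus A549 on the log2 scale. The larger negative differences were those of BRIP1 (-2.21), XRCC2 (-1.85), RAD51AP1 (-1.71), RAD54L (-2.06), FANCA (-1.76), UBE2T (-2.68), FANCI (-2.04), EXO1 (-1.62), BLM (-1.99) and CHEK2 (-1.94). The smaller negative ones were those of BRCA1 (-1.38), BARD1 (-1.27), BRCA2 (-1.24), FANCC (-1.18), FANCL (-1.28), FANCD2 (-1.37), MRE11 (-0.69), NBN (-1.06), RBBP8 (-1.38) and RMI1 (-0.80). The positive ones were RAD51C (0.59), FANCG (0.75) and RMI2 (1.49). Of the 23, 9 lost the call under some of 23 alternatives, most of them a single replicate left out: RMI1 in 16, EXO1 in 15, BRCA1 in 14, BARD1 and BRCA2 in 12 each, RAD51C in 7, FANCC and MRE11 in 4 each and FANCG in 1.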

How the results depend on the processing

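Of 4031 values of called genes under the alternatives, 3832 kept their direction and their side of the threshold, 199 lost the call and 0 reversed. The number of the 37 genes called stayed within 1.5 times the reported one in 9 of the 11 comparisons. The exceptions were both of doxorubicin against palbociclib, where the reported number is 0. In A549 it was 1 (BRCA1; 0.298% of all genes) without the first replicate in every group, and 0 to 2 with single replicates left out. In SK-MEL-147 it was 8 with DESeq2 (2.41% of all genes), 1 with DESeq2 size factors (0.108%), 5 with no filter on low counts (0.774%), 3 with the replicate block (1.84%), and 0 to 4 with single replicates left out. The reported fit called 0% of all genes in A549 and 0.0594% in SK-MEL-147. The cause was not tested. In SK-MEL-147 doxorubicin against control, the correlations of same-numbered replicates were positive (0.0769 to 0.284), but not all exceeded 0.1. There the block moved the number from 31 to 32. For the difference between the lines it gave 25, against 23 without it. The added calls were RAD51B, and SLX4 and RAD51D between the lines. The block changed no other call than these and those given with the results. Where a left-out replicate left an A549 group with 2 samples, the spread was pooled over groups. Low counts (9 for FANCB) limit the precision of the lowest genes.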
